A study of Mus musculus with 6 samples.

Results

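Heart muscle transcripts were present in every one of 6 mouse lung libraries, and most of them stood higher in the lungs of mice whose tumours lacked DPP3. The genes described are 10 of the 56980 in the deposited matrix, taken by symbol: the cardiac myosin heavy chains Myh6 and Myh7, the atrial myosin light chains Myl7 and Myl4, the cardiac troponin subunits Tnnt2, Tnni3 and Tnnc1, cardiac alpha-actin Actc1, cardiac myosin-binding protein C Mybpc3, and the atrial natriuretic peptide precursor Nppa. All 10 averaged 1 TPM or more over the libraries and entered the test. All mice were of the immunodeficient NSG strain, and lung RNA was taken 5 weeks after tumour cells had been injected into the fourth pair of mammary fat pads. In Ctrl (n = 3) the injected cells were the human triple-negative breast cancer line MDA-MB-231, and in DPP3_KO (n = 3) they were MDA-MB-231 with DPP3, the gene of dipeptidyl peptidase 3, knocked out. The knockout was made in the tumour cells and not in the host mice. The labels do not give the age of the mice or say whether the knockout line is a single clone, and nothing in them ties each replicate number to its own mouse. The p-values therefore measure the spread between these samples, which may be technical.

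In mice the pulmonary veins are wrapped by a sleeve of striated heart muscle that runs on from the left atrium into the lung, so lung tissue can hold true cardiomyocytes. Heart muscle contracts by myosin heavy chains pulling on actin filaments, with the troponin complex switching the filament on when calcium binds. Atrial and ventricular muscle share most sarcomere genes and differ in some: Myl7 and Myl4 are the atrial regulatory and essential light chains, Myl2 and Myl3 their ventricular partners, and Nppa is made mainly in atria. In the adult mouse heart the fast alpha heavy chain Myh6 prevails over the slow beta chain Myh7, and a shift towards Myh7 is a familiar mark of the fetal or overloaded heart.

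All values are TPM, a transcript level scaled for gene length and for the total of the library, so levels of different genes can be set side by side. TPM keeps no sequencing depth, so no counting error can be given. Each library had 22904 to 24477 genes above 0. The club cell secretoglobin Scgb1a1 alone took 7.16% to 10.1% of all TPM in Ctrl and 21.7% to 28.7% in DPP3_KO, and the median log2 change over the 15650 tested genes was -0.60 as deposited. With median-of-ratios scaling, which sets the libraries level on the typical gene, that median was -0.03, so changes are given as deposited and, where it matters, on that scale as well. The deleted gene lies in the human tumour cells, so no mouse transcript checks the group labels. The title of Ctrl replicate 3 writes the number of the cell line with another last digit. That library was the lowest of the 6 for 8 of the 10 genes (Tnnt2 and Nppa were the exceptions), and values without it are given below where it matters.

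The promoters of 4 genes are shown because their transcripts carry the main patterns below: the heavy chain pair, whose ratio separated the groups, the most abundant atrial light chain, and Actc1, the most variable of the abundant genes. Each is the 250 bases before the RefSeq transcription start, read 5′ to 3′ on the strand of the gene, with coordinates of RefSeq's GRCm38.p6, an earlier build than the GRCm39 named for the matrix. Capitals mark matches to the MCAT element, CATTCC or GGAATG on the other strand, which TEAD factors bind, and to the CArG box, the site of serum response factor.

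Myh6 (chr14:54966608-54966857, minus strand): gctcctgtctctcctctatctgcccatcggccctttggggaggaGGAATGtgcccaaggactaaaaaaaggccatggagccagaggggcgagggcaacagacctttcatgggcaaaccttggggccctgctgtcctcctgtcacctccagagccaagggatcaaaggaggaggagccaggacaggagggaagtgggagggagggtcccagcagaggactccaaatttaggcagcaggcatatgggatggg
Myh7 (chr14:54994627-54994876, minus strand): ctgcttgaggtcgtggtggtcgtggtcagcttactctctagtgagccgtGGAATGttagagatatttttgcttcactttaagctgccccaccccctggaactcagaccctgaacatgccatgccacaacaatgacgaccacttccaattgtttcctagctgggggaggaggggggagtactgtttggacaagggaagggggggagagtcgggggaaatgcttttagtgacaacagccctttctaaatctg
Myl7 (chr11:5898783-5899032, minus strand): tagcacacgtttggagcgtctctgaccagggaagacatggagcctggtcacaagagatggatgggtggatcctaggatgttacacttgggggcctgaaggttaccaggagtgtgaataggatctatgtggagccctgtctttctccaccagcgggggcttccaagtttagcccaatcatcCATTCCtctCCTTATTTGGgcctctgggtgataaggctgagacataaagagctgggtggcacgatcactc
Actc1 (chr2:114052876-114053125, minus strand): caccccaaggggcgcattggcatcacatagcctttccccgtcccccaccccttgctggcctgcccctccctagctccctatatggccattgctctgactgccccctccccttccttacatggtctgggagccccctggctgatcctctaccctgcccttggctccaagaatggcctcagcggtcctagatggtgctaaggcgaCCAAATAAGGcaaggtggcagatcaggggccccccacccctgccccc

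Both heavy chain windows printed hold the MCAT letters in the GGAATG orientation, starting 206 bases before the start of Myh6 and 201 bases before the Myh7 start shown. RefSeq gives Myh7 another start nearby (window chr14:54994550-54994799), and that window holds none of the motifs searched. The same GGAATG lies more than 250 bases before that other start. The like distance in the 2 genes thus holds only for the Myh7 start shown, whose window has the match. In Myl7 an MCAT match at 70 bases and a CArG box at 61 bases before the start lie next to each other without overlapping, and the Actc1 window has a CArG box at 47 bases. Over all 10 genes, on both strands, MCAT letters were found in 5 (Myh6, Myh7, Myl7, Tnnc1 and Tnnt2), against 14.4% of 27025 genes with such windows. The CArG box was found in Actc1 and Myl7, against 1.62% of genes. The GATA letters AGATAA occurred in Tnnt2 (11.4% of genes), the T-box letters AGGTGT in Nppa and Tnni3 (13.6%), the MEF2 site in Mybpc3 (3.42%) and the NKX2-5 letters CACTTAA in none of the 10 (2.45%). These matches describe letters in a window and no factor's binding.

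As a group the 10 genes summed to 1227, 943.1 and 577.9 TPM in Ctrl replicates 1, 2 and 3 and to 2132, 2279 and 2149 TPM in DPP3_KO replicates 1, 2 and 3. The mean of the sum was 916.1 ± 325.5 TPM in Ctrl (SD, n = 3) and 2187 ± 80.0 TPM in DPP3_KO, 2.39-fold higher, and the DPP3_KO libraries lay closer together than the Ctrl libraries. In bulk tissue, more heart muscle cells and more RNA of these genes per cell cannot be told apart.

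**Figure D1:**
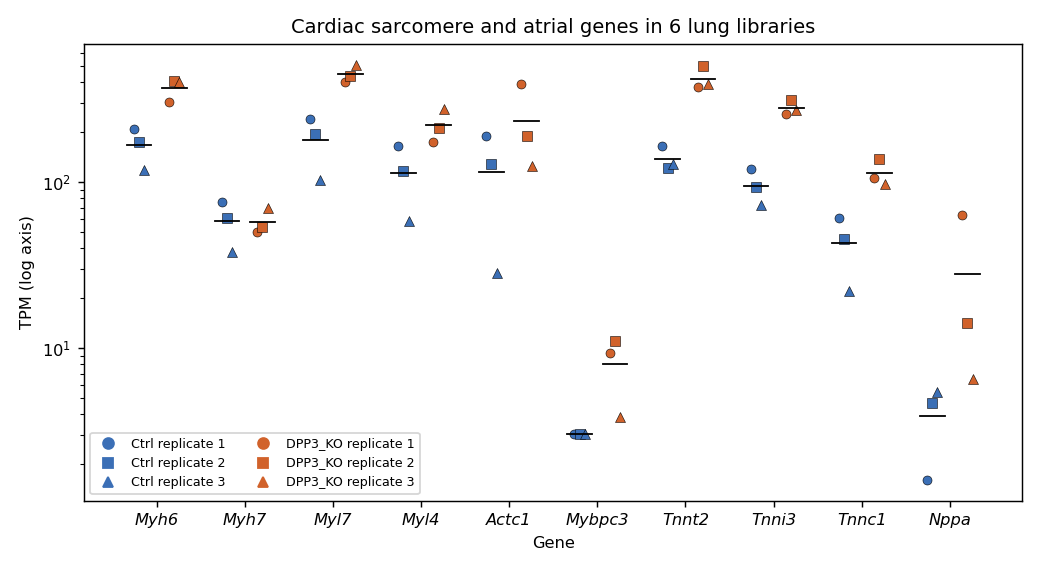
TPM on a log axis for each of the 10 genes, with Ctrl libraries in blue, DPP3_KO libraries in orange, the replicate shown by the symbol and the group mean by a bar. The DPP3_KO libraries lie above all Ctrl libraries for 8 genes, while the groups overlap for Myh7 and Actc1.

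Of the 10 genes, 5 rose in DPP3_KO as deposited (Myh6, Myl7, Tnnt2, Tnni3 and Tnnc1) and 0 fell (limma on log2(TPM + 1), Benjamini-Hochberg adjusted p under 0.05 over all tested genes). Over all tested genes the same test called 1.38% higher and 34.0% lower. With median-of-ratios scaling 6 of the 10 were called higher, Mybpc3 being the added gene, against 1.9% of all genes higher and 0.882% lower. Every DPP3_KO library lay above every Ctrl library for 8 of the 10 genes, which held for 2.73% of all tested genes, while for 51.1% every DPP3_KO library lay below. The median log2 change of the 10 genes was 1.32 as deposited, and median-of-ratios scaling took it to 1.98. The count depended on single libraries: without Ctrl replicate 2 it was 0 (smallest adjusted p 0.0615 by limma, 8 genes at an unadjusted p under 0.05, and 6 genes of the whole table called higher), and without DPP3_KO replicate 3 it was 3. It was 4 without DPP3_KO replicate 2 and 5 without any other library, Ctrl replicate 3 included.

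**Figure D2:**
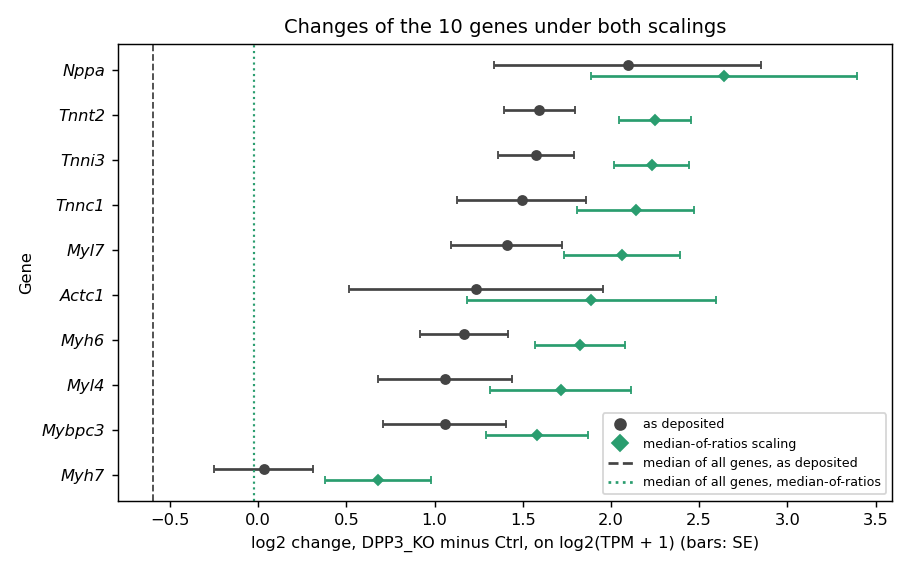
The log2 change of each gene, DPP3_KO minus Ctrl, on log2(TPM + 1) with its standard error, as deposited (grey circles) or with median-of-ratios scaling (green diamonds). Vertical lines mark the median change of all tested genes at -0.60 and -0.03; Myh7 lies lowest of the 10 on both scales.

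Of the heavy chains, the alpha chain rose and the beta chain did not pass the test. Myh6 (ENSMUSG00000040752), the alpha chain, stood at 208, 175 and 119 TPM in Ctrl replicates 1, 2 and 3 and at 304, 409 and 400.1 TPM in DPP3_KO replicates 1, 2 and 3. All 3 DPP3_KO values lay above all 3 Ctrl values. The mean rose from 168 ± 45.0 to 371 ± 58.1 TPM (SD, n = 3 each), a log2 change of 1.17 with a standard error of 0.25 (limma adjusted p = 0.0190). That call was lost in 8 of the 23 alternative fits described below. Myh7 (ENSMUSG00000053093), the beta chain, stood at 75.9, 60.5 and 38.1 TPM in Ctrl and at 49.95, 53.6 and 70.0 TPM in DPP3_KO. Its groups overlapped, its means were 58.2 ± 19.0 and 57.9 ± 10.7 TPM, and its log2 change of 0.03 did not pass (limma adjusted p = 0.934). Its sign turned to -0.24 without Ctrl replicate 3 and to -0.11 without DPP3_KO replicate 3. After median-of-ratios scaling Myh6 changed by 1.82 (adjusted p = 0.0241) and Myh7 by 0.68 (adjusted p = 0.238), both by limma.

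A plain ratio of genes within a library does not depend on how libraries are scaled. A ratio on the log2(TPM + 1) scale can depend on it where a gene lies near or below 1 TPM. The plain ratio of Myh6 to Myh7 was 2.74, 2.90 and 3.12 in Ctrl and 6.09, 7.63 and 5.72 in DPP3_KO. The groups were thus well separated, and the values within each group were close. On the log2(TPM + 1) scale the ratio was 1.53 ± 0.0883 in Ctrl and 2.66 ± 0.217 in DPP3_KO (SD, n = 3 each), a difference of 1.14. The exact two-sided permutation test gave p = 0.1, the smallest that 3 against 3 allows, and 0.2 after Benjamini-Hochberg adjustment over the 4 ratios tested. Leaving out any library left this difference between 1.01 and 1.22.

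Myh6 and Myh7 are near-identical tandem neighbours on the same strand, and reads that match both could be split between them by the authors' counting. In the order of start coordinates, RefSeq lists the microRNA gene Mir208a, the non-coding Gm52092 and the antisense transcript Mhrt between Myh6 and Myh7. Mhrt stood at 2.27, 1.96 and 1.54 TPM in Ctrl and 1.55, 2.26 and 0.89 TPM in DPP3_KO, far below Myh7. The strand setting is not given in the sources used here, so reads from Myh7 and its antisense partner cannot be told apart. Mir208a, hosted by Myh6, and Mir208b, hosted by Myh7, were listed at 0 in every library of these long-RNA preparations.

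**Figure D3:**
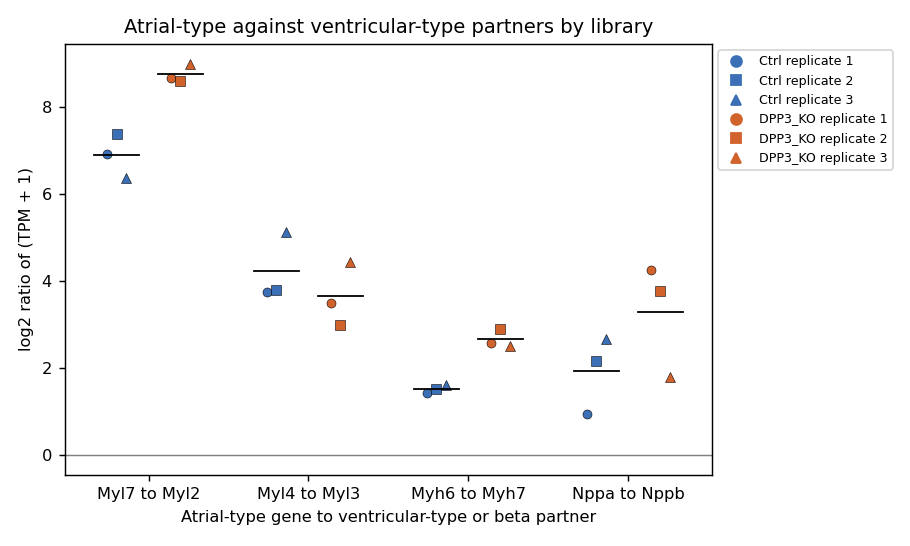
The log2 ratio of (TPM + 1) within each library for 4 pairs of an atrial-type or alpha gene over its ventricular-type or beta partner, with bars at the group means. Groups are separated for Myl7 to Myl2 and Myh6 to Myh7 and overlap for Myl4 to Myl3 and Nppa to Nppb.

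Both atrial light chains were well expressed in every library, and Myl7 rose in DPP3_KO. Myl7 (ENSMUSG00000020469), the atrial regulatory light chain, stood at 239, 194 and 103 TPM in Ctrl and at 403, 440 and 510.4 TPM in DPP3_KO. It had the highest mean of the 10 genes in both groups, 179 ± 69.5 and 451 ± 54.5 TPM (SD, n = 3 each), and its groups did not overlap. Its log2 change was 1.41 with a standard error of 0.32 (limma adjusted p = 0.0205), a call lost in 10 of the 23 alternative fits. Myl4 (ENSMUSG00000061086), the atrial essential light chain, stood at 164, 116 and 58.1 TPM in Ctrl and at 175, 212 and 276 TPM in DPP3_KO. The DPP3_KO values again lay above the Ctrl values, with a gap between 164 and 175 TPM that is narrow beside the spread within each group. The log2 change of 1.06 did not pass (limma adjusted p = 0.0633, and 0.0734 after median-of-ratios scaling), and without Ctrl replicate 3 it was 0.65.

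The ventricular partners were scarce. Myl2, the ventricular regulatory light chain and one of the most abundant transcripts of ventricular muscle, stood at 0.99, 0.17 and 0.25 TPM in Ctrl and at 0, 0.14 and 0 TPM in DPP3_KO, too low to be tested. Myl7 thus exceeded Myl2 in every library, by 6.89 ± 0.503 in Ctrl and 8.75 ± 0.217 in DPP3_KO on the log2(TPM + 1) scale (SD, n = 3 each). The groups did not overlap (exact permutation p = 0.1, adjusted 0.2), but the difference of 1.86 is set in part by the pseudocount of 1, since Myl2 lay below 1 TPM throughout. Myl3, the ventricular essential light chain, which slow skeletal muscle also uses, stood at 11.2, 7.41 and 0.70 TPM in Ctrl and at 14.5, 25.8 and 11.7 TPM in DPP3_KO (log2 change 1.64, limma adjusted p = 0.102). Myl4 exceeded Myl3 in every library, by 4.23 ± 0.772 in Ctrl and 3.65 ± 0.741 in DPP3_KO, with overlapping groups (exact permutation p = 0.4).

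The 3 troponin subunits rose together. Tnnt2 (ENSMUSG00000026414), which ties the troponin complex to tropomyosin, stood at 166, 123 and 128 TPM in Ctrl and at 373, 499 and 389 TPM in DPP3_KO. The lowest DPP3_KO library stood well above the highest Ctrl library. The mean rose 3.03-fold, from 139 ± 23.6 to 420.4 ± 68.4 TPM (SD, n = 3 each), a log2 change of 1.59 with a standard error of 0.20 (limma adjusted p = 0.0145). Tnni3 (ENSMUSG00000035458), the inhibitory subunit used by adult heart muscle alone, stood at 119, 93.2 and 73.2 TPM in Ctrl and at 259, 314 and 271 TPM in DPP3_KO. Here too the groups were far apart, with a log2 change of 1.58 (limma adjusted p = 0.0145).

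Tnnc1 (ENSMUSG00000091898), the calcium-binding subunit shared by heart and slow skeletal muscle, was the least abundant of the 3. It stood at 61.0, 45.1 and 22.0 TPM in Ctrl and at 106, 137 and 97.4 TPM in DPP3_KO, without overlap (log2 change 1.49, standard error 0.36, limma adjusted p = 0.0238). Its call was lost in 11 of the 23 alternative fits described below, against 3 each for Tnnt2 and Tnni3. Among these 11 was the fit with the libraries' trends with gene length removed after median-of-ratios scaling (log2 change 1.80, limma adjusted p = 0.0570). The ratio of Tnnt2 to Tnni3 was nearly fixed, at 1.39, 1.31 and 1.75 in Ctrl and 1.44, 1.59 and 1.44 in DPP3_KO. Its highest value was 1.33 times its lowest, the narrowest range of the 8 plain ratios computed. The ratio of Tnni3 to Tnnc1 ranged from 1.96 to 3.33 with overlapping groups.

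Actc1 (ENSMUSG00000068614), the sarcomeric actin of heart muscle, was the most variable of the abundant genes. It stood at 189, 128 and 28.2 TPM in Ctrl and at 389, 189 and 126 TPM in DPP3_KO, so that Ctrl replicate 1 equalled DPP3_KO replicate 2 and the groups overlapped. The means were 115 ± 81.3 and 234 ± 137 TPM (SD, n = 3 each), and the log2 change of 1.24 did not pass (limma adjusted p = 0.201). Without Ctrl replicate 3 that change was 0.43, and without DPP3_KO replicate 1 it was 0.79. Apart from that tie, its order over the libraries was that of the smooth muscle genes Acta2, Tagln and Actg2. Acta2 and Tagln put Ctrl replicate 1 above DPP3_KO replicate 2, and Actg2 put it below. The rest of the 9 listed smooth muscle genes had other orders. Acta2, smooth muscle alpha-actin, stood at 182, 133 and 39.4 TPM in Ctrl and at 296, 176 and 112 TPM in DPP3_KO, and Tagln, another smooth muscle gene, at 233, 178 and 48.0 TPM and at 303, 179 and 154 TPM. The ratio of Actc1 to Acta2 was 1.04, 0.962 and 0.715 in Ctrl and 1.31, 1.08 and 1.12 in DPP3_KO, without overlap. That of Actc1 to Myh6 ranged more widely, from 0.236 to 1.28, with overlapping groups. Actc1 and Acta2 code for near-identical proteins, and reads shared between them could be split by the counting, which was not tested. Smooth muscle can also transcribe Actc1.

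**Figure D4:**
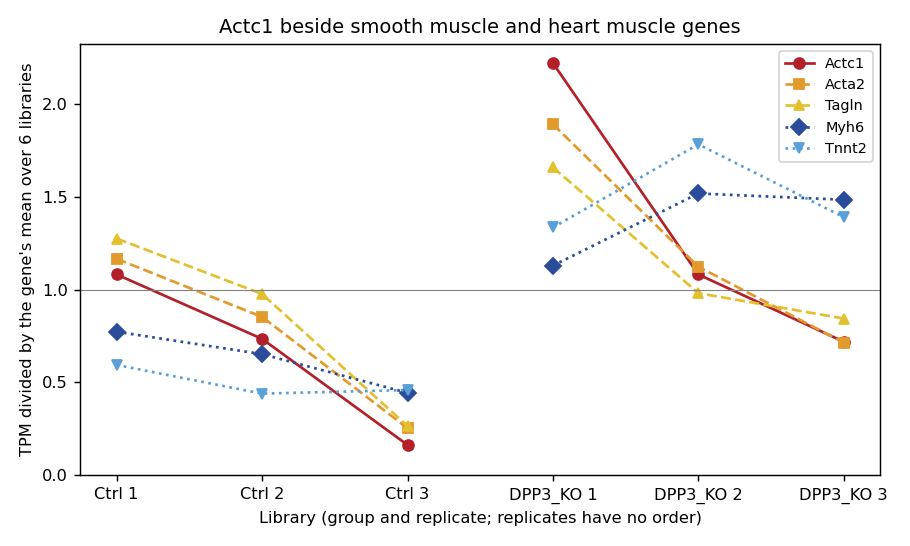
TPM of Actc1, the smooth muscle genes Acta2 and Tagln and the heart muscle genes Myh6 and Tnnt2 in each library, divided by the mean of that gene over the 6 libraries; lines only join the points of a gene. Actc1, Acta2 and Tagln are highest in DPP3_KO replicate 1 and lowest in Ctrl replicate 3, whereas Myh6 and Tnnt2 are highest in DPP3_KO replicate 2.

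Mybpc3 (ENSMUSG00000002100), the cardiac protein that braces the myosin filament, was far below the other sarcomere genes, at 3.05, 3.05 and 3.04 TPM in Ctrl and 9.30, 10.9 and 3.85 TPM in DPP3_KO. The Ctrl libraries were nearly equal, and DPP3_KO replicate 3 lay close to them. Its log2 change of 1.06 missed the threshold as deposited (limma adjusted p = 0.0506) and passed after median-of-ratios scaling (1.58, adjusted p = 0.0458). Mybphl, a shorter relative of the myosin-binding proteins that is found in atrial muscle, was the more abundant of this pair. It stood at 16.5, 13.4 and 7.05 TPM in Ctrl and 26.3, 32.1 and 24.4 TPM in DPP3_KO (log2 change 1.17, limma adjusted p = 0.0281), between 2.32 and 6.34 times Mybpc3.

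Nppa (ENSMUSG00000041616), the precursor of the hormone that atrial muscle releases on stretch, was low for an atrial gene and uneven. It stood at 1.60, 4.66 and 5.41 TPM in Ctrl and at 63.5, 14.1 and 6.51 TPM in DPP3_KO. DPP3_KO replicate 1 stood far above the rest, and the lowest DPP3_KO value was little above the highest Ctrl value. The means were 3.89 ± 2.02 and 28.1 ± 31.0 TPM (SD, n = 3 each), and the log2 change of 2.09 did not pass (limma adjusted p = 0.0651). Without DPP3_KO replicate 1 that change was 1.23. Nppb, its B-type relative made in both atria and ventricles, was highest in the same library, at 0.35, 0.26 and 0 TPM in Ctrl and 2.40, 0.10 and 1.15 TPM in DPP3_KO. The log2 ratio of Nppa to Nppb had overlapping groups (exact permutation p = 0.3). The 9 listed fat cell genes also summed highest in DPP3_KO replicate 1, at 155 TPM against 67.6 to 97.3 TPM in the other libraries, with Cfd at 57.0 TPM, whereas Fabp4, the most abundant of them, was highest in Ctrl replicate 3. The part of fat tissue in the Nppa value was not tested.

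Expressed as shares of the summed TPM of the 10 genes, the make-up of the heart muscle signal overlapped between the groups except for the beta heavy chain. Myh7 took 6.19%, 6.42% and 6.60% of the sum in Ctrl and 2.34%, 2.35% and 3.26% in DPP3_KO, and it was the only gene of the 10 whose shares did not overlap between the groups. Myl7 took 19.3% ± 1.40 in Ctrl and 20.6% ± 2.69 in DPP3_KO, Myh6 18.7% ± 1.84 and 16.9% ± 2.34, and Tnnt2 16.2% ± 5.14 and 19.2% ± 2.38 (SD, n = 3 each). Actc1 varied most, from 4.87% in Ctrl replicate 3 to 18.2% in DPP3_KO replicate 1. The shares were computed after the levels had been seen and were not tested.

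**Figure D5:**
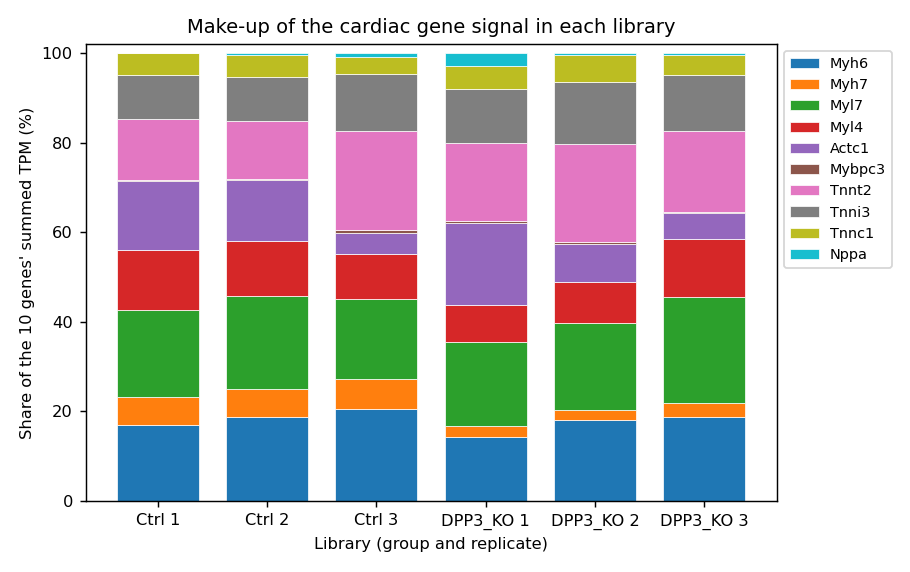
Share of each gene in the summed TPM of the 10 genes, in percent, stacked for each of the 6 libraries. The Myh7 band narrows from 6.19% to 6.60% in Ctrl to 2.34% to 3.26% in DPP3_KO, and the Actc1 band differs more among replicates than between groups.

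By mean level the Ctrl order ran Myl7, Myh6, Tnnt2, Actc1, Myl4, Tnni3, Myh7, Tnnc1, Nppa and Mybpc3. The ranges of all neighbours in this order overlapped except those of Tnnc1 (22.0 to 61.0 TPM) and Nppa (1.60 to 5.41 TPM). The DPP3_KO order ran Myl7, Tnnt2, Myh6, Tnni3, Actc1, Myl4, Tnnc1, Myh7, Nppa and Mybpc3, with Myh7 moving below Tnnc1. Here the neighbours whose ranges did not overlap were Myl4 (175 to 276 TPM) and Tnnc1 (97.4 to 137 TPM), and Tnnc1 and Myh7 (49.95 to 70.0 TPM).

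Other genes known to mark atrial or ventricular muscle were read beside the light chains. Of 8 atrial-type genes, 6 were tested, 3 rose (Myl7, Sln and Mybphl) and 0 fell, with a median log2 change of 1.29. Over all tested genes 1.38% rose and 34.0% fell. Sln, the small atrial inhibitor of the calcium pump, stood at 17.4, 13.9 and 16.0 TPM in Ctrl and 49.3, 54.6 and 43.0 TPM in DPP3_KO (log2 change 1.57, limma adjusted p = 0.0144). Bmp10, a growth factor secreted by the right atrium, was listed at 0 in every library. Of 6 ventricular-type genes, 3 were tested (Myh7, Myl3 and Hey2) and 0 passed in either direction by limma. As deposited, 0 of them had an unadjusted p under 0.05, and the same 3 did not pass after median-of-ratios scaling. Myl3 nevertheless lay higher in DPP3_KO without overlap (log2 change 1.64), by a narrow gap between 11.2 and 11.7 TPM. Such a separation held for 2.73% of all tested genes. After median-of-ratios scaling the change of Myl3 was 2.20 (limma unadjusted p = 0.0120, adjusted p = 0.117). The groups overlapped for Myh7 and Hey2. The ventricular regulator Irx4 was listed at 0 in every library, and Hey2, also expressed by vessel cells, had means of 3.32 and 2.55 TPM. The lists were not compared with each other by a test. The label of pulmonary vein muscle cannot be checked further, since sleeve muscle and attached atrial tissue share these markers and cannot be told apart in these libraries.

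Part of the remaining contractile apparatus rose as well. Of 21 other sarcomere and Z-disc genes, all were tested, 11 rose and 0 fell (median log2 change 0.90). Over all tested genes 1.38% rose and 34.0% fell (median -0.60). The Ctrl means of Ttn, Xirp1, Xirp2, Trim55 and Synpo2l lay below 1 TPM, so only the DPP3_KO libraries carried them over the filter. None of these genes was among the 11, but they count in the 21 and in the median. Ttn, the gene of titin, had means of 0.96 and 1.10 TPM and did not pass (limma adjusted p = 0.773). Tcap, which caps titin at the Z-disc, rose from 45.5 ± 16.5 to 161 ± 27.6 TPM (SD, n = 3 each; log2 change 1.86, limma adjusted p = 0.0152). Tpm1, a tropomyosin that smooth muscle and other cells also express, stood at 290.5 and 327 TPM on average and did not pass (limma adjusted p = 0.600), nor did the intermediate filament gene Des at 50.5 and 88.1 TPM (adjusted p = 0.0812). Of 16 calcium-handling and energy genes, 9 rose and 0 fell (median 1.09), among them Mb, the oxygen-binding myoglobin, from 41.9 to 163 TPM (limma adjusted p = 0.0214), and Cox6a2, a muscle form of a respiratory chain subunit, from 38.5 to 89.8 TPM (adjusted p = 0.0145). Atp2a2, the calcium pump that nearly all cells express, did not pass at 129 and 150.2 TPM (limma adjusted p = 0.711).

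Of 16 regulators and connexins of heart muscle and pulmonary vein, 9 were tested, 0 rose and 3 fell as deposited: Mef2a, Mef2c and Srf (median -0.90), a share close to the 34.0% of all tested genes. Srf, which binds the CArG box, had means of 32.3 and 15.8 TPM (log2 change -0.97, limma adjusted p = 0.0187), but after median-of-ratios scaling 0 of the 9 passed and Srf stood at -0.34 (adjusted p = 0.351). These 3 genes are broadly expressed in lung. Nkx2-5, a cardiac homeobox gene closer to heart muscle, stood at 0.99, 0.33 and 0.43 TPM in Ctrl and 1.91, 1.2 and 1.74 TPM in DPP3_KO (log2 change 0.74, limma adjusted p = 0.0802). Its groups did not overlap, and it was picked after its values were seen. Its means were 0.583 TPM in Ctrl and 1.62 TPM in DPP3_KO, so only the DPP3_KO libraries carried it over the 1 TPM filter. Gata4 had means of 1.2 and 1.213 TPM (limma adjusted p = 0.846). Tbx5 lay lower without overlap, at 17.8 and 8.74 TPM, and did not pass (log2 change -0.91, limma adjusted p = 0.0553). Of the 9 tested, 1 lay wholly above Ctrl and 4 wholly below, against 2.73% and 51.1% of all tested genes.

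Of 7 natriuretic peptide system genes, 5 were tested, 0 rose and 2 fell as deposited, a share near the 34.0% of all tested genes that fell. Npr1, the receptor of atrial natriuretic peptide, had means of 68.7 and 31.9 TPM (log2 change -1.07, limma adjusted p = 0.0225) and Npr2 means of 53.3 and 23.9 TPM (-1.06, adjusted p = 0.0414), while Npr3, with means of 52.8 and 21.3 TPM, did not pass (-1.40, limma adjusted p = 0.0562). None of the 3 passed with median-of-ratios scaling (limma adjusted p = 0.345, 0.434 and 0.449). Capillary endothelial genes moved with them: 7 of 7 fell as deposited (3 with median-of-ratios scaling), summing to 1818 to 2163 TPM in Ctrl and 319 to 628 TPM in DPP3_KO, and their part in the Npr1 value was not tested.

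The 8 genes outside the set whose profile over the 6 libraries lay nearest to the mean profile of the 10 were Itgb1bp2, Pgam2, Ldb3, Mybphl, Actn2, Cox8b, Adprhl1 and Lrrc46, at a root-mean-square distance of 0.11 to 0.17 on the log2(TPM + 1) scale. Most are known from striated muscle, such as Ldb3 and Actn2 of the Z-disc, the muscle glycolytic enzyme Pgam2 and the muscle integrin-binding melusin gene Itgb1bp2. Pgam2 stood at 15.3, 14.4 and 7.0 TPM in Ctrl and 32.1, 33.9 and 27.0 TPM in DPP3_KO. Actn2 stood at 12.7, 9.45 and 6.47 TPM and at 28.7, 33.1 and 20.9 TPM. Both were lowest in Ctrl replicate 3 and without overlap between groups, which follows from how they were chosen.

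Markers of other tissues were read beside the 10 genes. The fast and developmental skeletal heavy chains Myh1, Myh2, Myh4, Myh3 and Myh8 stood between 0 and 0.11 TPM in every library and Mybpc1 at 0. Slow skeletal muscle shares Tnnc1 and Myh7 with the heart; its troponin genes Tnnt1 and Tnni1 had means of 6.23 and 0.163 TPM in Ctrl and 4.70 and 0.0333 TPM in DPP3_KO, and its part in Tnnc1 and Myh7 was not tested. Of 18 skeletal muscle genes, 7 were tested and 0 passed as deposited by limma (2 at an unadjusted p under 0.05, and 1, Tnnt3, called higher after median-of-ratios scaling), with sums of 19.4 to 33.1 TPM in Ctrl and 20.9 to 28.3 TPM in DPP3_KO. Smooth muscle genes summed to 289 to 847 TPM in Ctrl and 572 to 1194 TPM in DPP3_KO, and 1 of 9 rose (Lmod1). Mesothelial genes, 5 of 5 tested, had 0 calls by limma, 0 at an unadjusted p under 0.05, and sums of 50.5 to 244 and 115 to 201 TPM. Of 6 adipose genes tested 1 rose (Cidea), with sums of 67.6 to 97.3 and 86.5 to 155 TPM. Adipoq, which did not pass, was carried over the 1 TPM filter only by the DPP3_KO libraries. Beside these counts, 1.38% of all tested genes rose and 34.0% fell as deposited. After median-of-ratios scaling the shares were 1.9% and 0.882%.

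Part of the listed airway genes rose beside the heart muscle genes. Of 6 club cell genes 4 rose (2 after median-of-ratios scaling), and of 7 ciliated cell genes 4 rose, where 1.38% of all tested genes rose as deposited. Ciliated sums were 495 to 684 TPM in Ctrl and 783 to 838 TPM in DPP3_KO. The changes of 2 ciliated genes lay below 0, among them Tppp3, the most abundant, with means of 402 and 360 TPM (limma adjusted p = 0.602). The club cell gene Cyp2f2 did not pass either, with means of 1570 and 2300 TPM (limma adjusted p = 0.217). Of 6 large-vessel endothelial genes 2 fell as deposited, a share close to the 34.0% of all tested genes (0 with median-of-ratios scaling), with sums of 398 to 487 and 154 to 367 TPM. How much of the lung each piece of tissue held of airway, great vessel and vein root is not given in the labels, and the part of these tissues in the change of the 10 genes was not tested.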

How the data were processed

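Lung total RNA of 6 samples was sequenced from TruSeq libraries, per the labels' protocols. The values are TPM, which the authors deposited as a single matrix; the submitters' processing notes name HISAT2, StringTie, RSEM and GRCm39 without roles. The annotation, the strand setting and how human reads were handled are not given in the sources. All columns have the same sum, so depth is unknown. Groups and replicate numbers came from the titles, where the other cell line number of Ctrl replicate 3 was read as a slip for 231, the number in its column name.

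Genes averaging 1 TPM or more were tested on log2(TPM + 1), a scale that understates changes of low genes, with limma 3.58.1 in R 4.3.3 (intensity trend, two-sided, Benjamini-Hochberg over 15650 genes, threshold 0.05). The fit was tested on simulated data. The 4 ratios were tested by exact permutation over samples. The 10 genes, the 15 lists and the tests were chosen with earlier results of these data known. Named were the 10 genes, Myl2, Myl3, Nppb, the 3 most abundant tested genes of the lists and the 8 nearest genes. Shares, plain ratios, promoter motifs and other names were chosen after values were seen. Alternatives were pseudocounts of 0.1 and 5, no filter or a minimum mean of 5 TPM, median-of-ratios scaling with and without removal of each library's length trend (lowess span 0.3), TPM rescaled without Scgb1a1 and the mitochondrial and haemoglobin genes, quantile normalization, no intensity trend, a replicate block, and each library left out.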

Additional observations from a re-analysis of the deposited data

How the results depend on the processing

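Over the 10 genes under 23 alternative fits, 186 values kept their direction and their side of the threshold, 35 kept only the direction, 7 passed where they had not, and 2 reversed, both of Myh7, at -0.24 without Ctrl replicate 3 and -0.11 without DPP3_KO replicate 3. With each library left out in turn, 0 to 5 of the 10 genes were called higher as deposited and 0 to 3 after median-of-ratios scaling, with 6 to 161 and 18 to 179 of all genes higher and 85 to 5049 and 6 to 174 lower. After that scaling, 34, 47, 101 and 51 of all genes were higher and 19, 49, 54 and 17 lower without Ctrl replicates 1, 2 and 3 and DPP3_KO replicate 3, and the 0 of the 10 came without DPP3_KO replicate 2 (smallest limma adjusted p 0.0523, 8 genes at an unadjusted p under 0.05). TPM rescaled without mitochondrial and haemoglobin genes and Scgb1a1 gave 3 of the 10, with 92 of all genes higher and 124 lower. The counts of the lists also depended on the processing. The same rescaling called 1 atrial-type gene higher, against 3 in the main fit. It called 7 other sarcomere and Z-disc genes (main fit 11) and 5 calcium-handling and energy genes (main fit 9). With no filter these counts were 2, 7 and 5, with 156 of all genes higher. Of all genes, 3093 were lower with no filter, 138 after median-of-ratios scaling, 140 after quantile normalization (327 higher) and 90 after removal of the length trend. Same-numbered samples of the groups deviated with correlations of 0.271, -0.206 and 0.147 across genes, and differently numbered ones with -0.483 to 0.408. So few values cannot show whether the numbers pair the samples. A replicate block called 6 of the 10 genes higher as deposited, adding Actc1 (limma adjusted p = 0.0453), and with median-of-ratios scaling 0 of the 10 (smallest limma adjusted p 0.05, 9 genes at an unadjusted p under 0.05), with 25 of all genes higher and 8 lower. The cause of these differences was not tested. The 4 ratios kept their sign in all 9 alternatives each, and with the block p could not go below 0.25. Depth is unknown, so values near 0 such as those of Myl2 carry an error that could not be given.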
